A study of Mus musculus with 5 samples.

Results

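Proteasome genes were read from a genome-wide map of H3K36me3 in mTEClo, the medullary thymic epithelial cells with low CD80. Members were the protein-coding RefSeq genes of the mouse whose symbol begins with Psm, a letter from a to g and a number. The rule found 51 genes among the 21887 that code for protein on the autosomes, X and Y. They comprise 14 constitutive subunits of the 20S core, the testis-specific Psma8, 3 immune subunits, the thymus-specific Psmb11, 17 subunits of the 19S regulatory particle, 7 assembly chaperones, 5 activator genes, 1 inhibitor gene and 2 genes named after a subunit. The cells were sorted as EpCAM+ UEA-1+ Ly51lo CD80lo from the thymus of wild-type B6 mice, with no other treatment or genotype. The 5 samples were 2 ChIP libraries, series 1 and series 2, and 3 input libraries without antibody. Each ChIP library has 1 list of broad peaks called against its input. No label ties a mouse to a library, and values that differ from one series to the other may do so for technical reasons. Ages were not in the labels.

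The proteasome is the protease of cytosol and nucleus that degrades ubiquitin-tagged proteins and supplies most peptides for MHC class I. Its barrel-shaped 20S core holds outer rings of alpha subunits and inner rings of beta subunits, of which Psmb5, Psmb6 and Psmb7 are catalytic. Under interferon the immune subunits Psmb8, Psmb9 and Psmb10 take their place, and cortical thymic epithelium uses Psmb11 in place of Psmb5 or Psmb8, which shapes the peptides for positive selection of CD8 T cells. The 19S particle recognises, unfolds and feeds in substrates. H3K36me3 is laid down by Setd2 travelling with elongating RNA polymerase II, and therefore marks the bodies of transcribed genes, more towards their 3′ ends.

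The lists held 7231 peaks in series 1 and 10243 in series 2, with 1 score per peak and no read counts, so depth is unknown. Where a gene had no peak, its mark was not detectable in that library at its depth, and a mark in few cells cannot be told apart from a weak mark in many. Of 9 genes listed for mTEClo, which need not be particular to these cells, 3 had a peak in either series. They were the basal keratin Krt5 in both, Trp63 in series 1 and Relb in series 2, while Epcam, Krt14, Krt8, Ccl21a, Foxn1 and Cd40 had none. Of 4 genes of mature mTEC, Ciita had a peak in both and Cd80 in series 2, while Aire and Fezf2 had none, and of 6 cortical genes Ly75 alone had one, in both. None of 6 thymocyte, 3 B cell, 2 fibroblast and 2 endothelial markers had a peak. Of 3 myeloid and dendritic genes, Csf1r and Flt3 had 1 each in series 2, while Itgax had none. Over all coding genes, 27.4% had a peak in either series, from 1.37% under 5 kb to 62.9% at 50 kb and over. The median span was 11.1 kb for the thymocyte markers and 6.70 kb for the B cell markers. Of coding genes of 10 to 20 kb 19.2% had a peak, and of those of 5 to 10 kb 8.02%. On such small lists these counts do not show which cells were present. The part of other cells in any peak was not tested.

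The contrast of core subunits turned on genes that carried no peak. The 3 immune subunits Psmb8, Psmb9 and Psmb10 and the thymic subunit Psmb11 had no peak in series 1 or in series 2. Neither had Psmb5, the constitutive subunit whose place Psmb8 and Psmb11 take. The windows around their start sites are printed because these genes define the constitutive, immune and thymic forms of the core. They run from 250 bases before to 50 bases after the annotated start and come from RefSeq on GRCm38.p6, the assembly of mm10. Psmb5 lies at chr14:54617946-54618245 on the minus strand, Psmb8 at chr17:34197945-34198244 on the plus strand, Psmb9 at chr17:34187281-34187580 on the minus strand, Psmb10 at chr8:105938343-105938642 on the minus strand, and Psmb11 at chr14:54625060-54625359 on the plus strand. Capitals mark matches on either strand to 5 motifs: TGACNNNGC, the core of the antioxidant response element read by Nfe2l1 and Nfe2l2; GAAA and GAAA again with any 2 bases between, the core of the interferon-stimulated response element; TTCNNNGAA, the core of the gamma-activated site; GGGCGG, the GC box; and CCAAT.
Psmb5: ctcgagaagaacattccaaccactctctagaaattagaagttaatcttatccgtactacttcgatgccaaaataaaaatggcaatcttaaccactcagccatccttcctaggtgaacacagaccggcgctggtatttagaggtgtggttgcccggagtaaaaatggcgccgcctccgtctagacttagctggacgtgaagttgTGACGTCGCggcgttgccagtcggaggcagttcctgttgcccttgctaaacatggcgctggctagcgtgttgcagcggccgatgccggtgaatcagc
Psmb8: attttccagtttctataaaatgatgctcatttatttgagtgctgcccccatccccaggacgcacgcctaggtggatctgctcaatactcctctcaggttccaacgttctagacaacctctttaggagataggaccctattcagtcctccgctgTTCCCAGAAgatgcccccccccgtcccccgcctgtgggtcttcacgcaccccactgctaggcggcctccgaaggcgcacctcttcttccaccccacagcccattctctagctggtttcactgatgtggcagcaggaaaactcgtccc
Psmb9: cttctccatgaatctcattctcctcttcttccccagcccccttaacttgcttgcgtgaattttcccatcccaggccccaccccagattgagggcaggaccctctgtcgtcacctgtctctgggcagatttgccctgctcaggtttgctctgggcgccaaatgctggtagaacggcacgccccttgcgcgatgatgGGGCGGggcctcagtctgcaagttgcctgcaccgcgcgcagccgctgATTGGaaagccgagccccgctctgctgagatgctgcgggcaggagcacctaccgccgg
Psmb10: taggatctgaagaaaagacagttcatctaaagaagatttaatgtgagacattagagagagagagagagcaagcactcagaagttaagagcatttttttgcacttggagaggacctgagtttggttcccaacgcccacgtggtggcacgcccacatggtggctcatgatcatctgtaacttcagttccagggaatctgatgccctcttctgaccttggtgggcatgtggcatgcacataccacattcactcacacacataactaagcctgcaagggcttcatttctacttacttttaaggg
Psmb11: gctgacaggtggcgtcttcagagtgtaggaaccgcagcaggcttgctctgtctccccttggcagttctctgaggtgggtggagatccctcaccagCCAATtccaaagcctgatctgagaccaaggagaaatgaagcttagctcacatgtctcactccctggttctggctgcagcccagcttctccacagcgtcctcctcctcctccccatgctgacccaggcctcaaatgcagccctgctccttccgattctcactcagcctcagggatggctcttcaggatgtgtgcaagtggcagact

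The Psmb5 window held TGACNNNGC beginning 47 bases upstream of the start, and the Psmb8 window held TTCNNNGAA beginning 97 bases upstream. The Psmb9 window, which also spans the start of the neighbouring Tap1, held a GC box and an inverted CCAAT. Psmb11 held CCAAT alone, and Psmb10 held none of the 5 motifs. Entries were found for 43 of the 51 members, with 47 windows. TGACNNNGC was in 6 of these 47 (12.8%) and in 13.0% of 21263 windows of all coding genes. The interferon-stimulated core was in 5 (10.6%, against 3.35%), at Psmb3, Psmd4, Psmd9, Psme1 and Psmg4, and in none of the 3 immune subunit windows. TTCNNNGAA was in 3 (6.38%, against 7.69%), at Psmb8, Psmd2 and Psmg1. GC boxes were in 25 (53.2%, against 46.2%) and CCAAT in 16 (34.0%, against 38.2%). No 2 of the matches overlap in these 5 windows. No peak of either series touched any of the 47 windows, and among all coding windows 0.0517% were touched in series 1 and 0.0658% in series 2.

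Counting any overlap of 1 bp or more, peaks of series 1 touched 11 proteasome genes, those of series 2 also 11, those of both 4 and those of either 18. No member reached a covered share of 10% in either series, a level met by 0.740% of coding genes. Over all protein-coding genes the same rule took in 16.3% in series 1, 19.5% in series 2, 8.42% in both and 27.4% in either, so the members' shares of 21.6%, 21.6%, 7.84% and 35.3% stood near or somewhat above that background. The median covered share of a member was 0 in each series, as it was for all coding genes. Summed over the members' 970.1 kb, peaks covered 11.3 kb (1.17%) in series 1 and 6.09 kb (0.628%) in series 2, where all coding genes were covered over 0.315% and 0.224%. The whole lists cover 4.43 Mb in series 1 and 3.38 Mb in series 2. The members' coverage was thus above that of the spans of all coding genes, introns included, in both libraries, although 33 of the 51 members had none. These totals are not matched for gene length. Within length bands it was also above in both libraries at 5 to 10 kb, 20 to 50 kb and 50 kb and over. At 5 to 10 kb in series 1 the gap was narrow, 0.444% against 0.347%. It was below at 10 to 20 kb in series 2 and under 5 kb, where members had no peak.

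**Figure D1:**
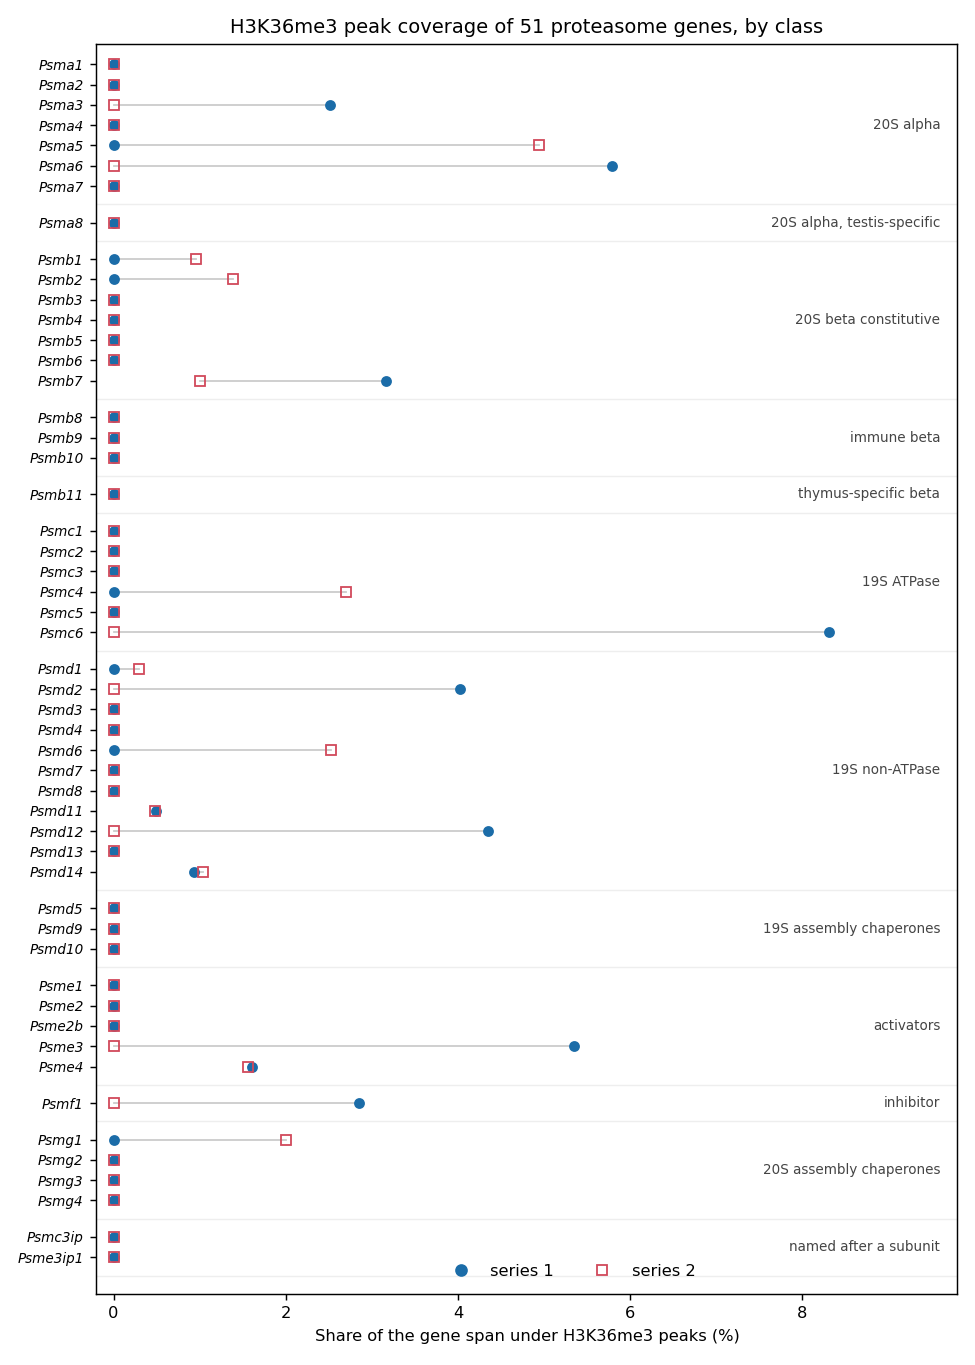
Share of each gene span (%) under H3K36me3 peaks for the 51 proteasome genes, grouped by class; filled circles are series 1 and open squares series 2, each 1 library, and a grey line joins the values of a gene. Most genes sit at 0 in both series, Psmc6 reaches 8.31% in series 1, and only Psmb7, Psmd11, Psmd14 and Psme4 are above 0 in both.

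Members with a peak were longer than members without. The median span was 24.8 kb in the 18 members with a peak and 7.25 kb in the 33 without. Among the 11 members under 5 kb none had a peak in either series, where 1.37% of all coding genes of that length had one. From 5 to 10 kb, 3 of 12 had a peak (8.02% of coding genes of that length), and from 10 to 20 kb, 4 of 14 (19.2%). From 20 to 50 kb, 7 of 9 did (35.8%), and of the 5 members of 50 kb and over, 4 did (62.9%). Counted in either series, the members' share was above that of coding genes of their length in each of the 4 bands from 5 kb upward, on small counts. This did not hold in every series: in series 2, 1 of 14 members of 10 to 20 kb (7.14%) had a peak against 11.9% of coding genes, and peaks covered 0.109% of these members' spans against 0.380%. No member under 20 kb was hit in both series, where 0.969% of coding genes of 5 to 10 kb and 2.78% of those of 10 to 20 kb were. The 2 members of 20 to 50 kb without a peak were Psmd9, a chaperone of 19S assembly, and Psme3ip1, named after its binding to Psme3. The member of 50 kb and over without one was Psma8, the alpha subunit of the testis proteasome, with a span of 56.2 kb.

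**Figure D2:**
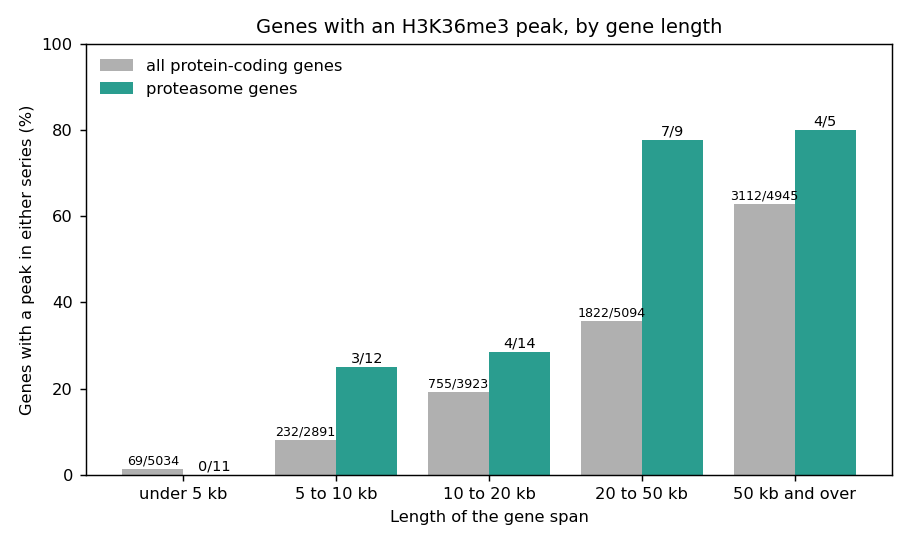
Share of genes (%) that a peak of either series touches, by length of the gene span, for all protein-coding genes (grey) and proteasome genes (green), with counts above the bars. The share rises with length in both, none of the 11 proteasome genes under 5 kb has a peak, and 7 of 9 between 20 and 50 kb do.

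Of the alpha ring, Psma3, Psma5 and Psma6 carried a peak and Psma1, Psma2, Psma4 and Psma7 did not. Psma6, at chr12:55384222-55418459, held the widest peak of any member, 1982 bp with a score of 29 in series 1, over 5.79% of its span, and had none in series 2. Psma3 held the highest score of any member peak, 45 in series 1, over 2.52% of its span, against none in series 2. That score was at or above 92.0% of the series 1 list. Psma5 was the reverse, with no peak in series 1 and 1 of 1138 bp with a score of 15 in series 2, over 4.94%. No alpha subunit was therefore hit in both libraries. Of all coding genes 8.42% were, and 8.66% of those of 20 to 50 kb, so none among 7 genes is close to the background.

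Among the constitutive beta subunits, Psmb1, Psmb2 and Psmb7 carried a peak and Psmb3, Psmb4, Psmb5 and Psmb6 did not. Psmb7, which gives the core its trypsin-like activity, lies at chr2:38588046-38643952 and had 2 peaks in series 1 (scores 23 and 15) and 1 in series 2 (score 14). They covered 3.17% and 1.00% of its span, 2.09% ± 1.53 (SD, n = 2), and the nearest of them in the 2 lists were 7.60 kb apart. Psmb2, a structural beta subunit, had no peak in series 1 and 2 in series 2, with scores of 17 and 16 over 1.39%. Psmb1, another structural subunit, had 1 peak of 216 bp in series 2 alone, with a score of 12. The lowest score in either list was 10, so Psmb1 rests on a peak near the limit of calling.

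Catalytic subunits were split by length in the same way as the rest. Psmb7 spans 55.9 kb. Psmb5, with chymotrypsin-like activity, and Psmb6, with caspase-like activity, span 3.88 and 2.54 kb. The immune subunits Psmb8, Psmb9 and Psmb10 span 3.26, 5.30 and 2.67 kb. Psmb11 spans 4.25 kb. Peaks were found in 0.477% of all coding genes under 5 kb in series 1, and in 0.954% in series 2. Of those of 5 to 10 kb, the band of Psmb9, 4.05% and 4.95% had one. An absent peak over the immune and thymic subunits and their short spans cannot be told apart with these lists. The count over those 4 genes stayed at 0 with spans extended by 1 kb at each end.

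The surroundings of these genes differed. Psmb5 and Psmb11 lie 7.31 kb apart on chromosome 14, and the peak nearest to them in series 1 was 44.6 kb from Psmb5 and 55.8 kb from Psmb11, over Ajuba. In series 2 it was 175.1 and 186.3 kb away. On chromosome 17, Psmb9 and Psmb8 flank Tap1, which encodes a chain of the transporter that brings proteasome products into the endoplasmic reticulum. Tap1 held 1 peak in each series, chr17:34194262-34194606 with a score of 33 in series 1 and chr17:34194314-34194628 with a score of 18 in series 2. These peaks shared 293 bp and covered 3.57% and 3.26% of Tap1, 3.41% ± 0.219 (SD, n = 2). They end 3.59 and 3.57 kb short of Psmb8 and begin 6.93 and 6.98 kb beyond Psmb9. Tap2, the other chain, held 1 peak of 963 bp in series 2 alone. The genes of the interferon-induced activator also lay near a gene with peaks, which was beside them and not between them. Psme1 and Psme2, which encode its alpha and beta chains, had no peak, and the peak nearest to Psme2 lay over Rnf31, 7.05 kb away in series 1 and 7.20 kb in series 2. Rnf31 lies 0.611 kb from Psme2, and its peaks in the 2 lists shared 333 bp. From Psme1 the nearest peak was 16.6 kb away over Rnf31 in series 1 and 16.5 kb away over Dcaf11 in series 2.

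**Figure D3:**
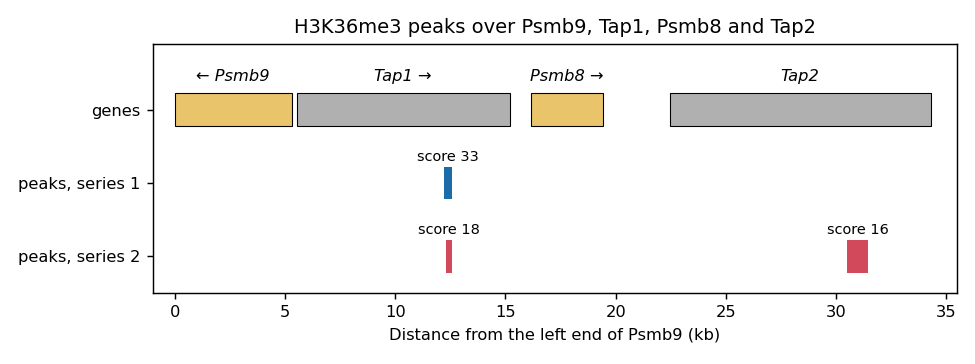
Map of Psmb9, Tap1, Psmb8 and Tap2 to scale, in kb from the left end of Psmb9, with arrows for the strand where known, and the peaks of series 1 (blue) and series 2 (red) with their scores. The peaks of both series coincide in Tap1, and neither Psmb9 nor Psmb8 has one.

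The 6 ATPases form the ring that unfolds substrates. Psmc6 had the largest covered share of any member, 8.31% of the 19.3 kb at chr14:45329823-45349074 in series 1, from peaks of 1082 bp (score 17) and 517 bp (score 33), and none in series 2. Psmc4 had 1 peak of 227 bp in series 2 with a score of 21, over 2.71%, and none in series 1. Psmc1, Psmc2, Psmc3 and Psmc5 had none in either. None of the 6 ATPases, all of 5 to 20 kb, was hit in both series. Of coding genes, 0.969% of those of 5 to 10 kb and 2.78% of those of 10 to 20 kb were. The lack of a common ATPase is therefore close to the background.

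Of the 11 other 19S subunits among the members, 6 carried a peak, and 2 of them, Psmd11 and Psmd14, in both series. Of all coding genes 27.4% had a peak in either series and 8.42% in both. Psmd11 spans 44.6 kb and Psmd14 88.7 kb. Of coding genes of 20 to 50 kb 8.66% were hit in both, and of those of 50 kb and over 25.5%. Psmd14 is the deubiquitinase that removes ubiquitin chains at the entry of the core. It lies at chr2:61711694-61800376 and had 2 peaks in each series, with scores of 19 and 17 in series 1 and of 13 and 17 in series 2. They covered 0.929% and 1.04% of its span, 0.985% ± 0.0789 (SD, n = 2). The closest pair, chr2:61760714-61761031 in series 1 and chr2:61762046-61762265 in series 2, lay 1.01 kb apart. Psmd11, a scaffold subunit at the contact of lid and base, is at chr11:80428615-80473248 and had 1 narrow peak per series, of 222 bp (score 23) and 217 bp (score 19), 28.8 kb apart. Its covered shares were 0.497% and 0.486%, 0.492% ± 0.00792 (SD, n = 2). Similar shares therefore did not mean the same place.

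Psmd2, a docking subunit for ubiquitin receptors, and Psmd12, a lid subunit, were hit in series 1 alone, over 4.02% and 4.35% of their spans, with scores of 18 and 17. Psmd1, the other large base subunit, and Psmd6, a lid subunit, were hit in series 2 alone, over 0.291% and 2.52%, with scores of 21 and 13. Psmd6 also shows how the 1 bp rule acts, since a series 1 peak with a score of 12 lay 0.559 kb outside its annotated end and was not counted. Among members without a peak in a given series, the next nearest peak of that series was 2.91 kb from Psmd12, in series 2. All member overlaps counted were of whole peaks of 216 bp or more. Psmd3, Psmd4, Psmd7, Psmd8 and Psmd13 had no peak.

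Among the activators, Psme4, a nuclear protein that caps the core without ATP, lies at chr11:30771775-30881150 and was the member with the most peaks. It had 2 in series 1, with scores of 17 and 16, and 3 in series 2, with scores of 12, 22 and 30. The covered shares were 1.61% and 1.56%, 1.58% ± 0.0330 (SD, n = 2). The highest-scoring, chr11:30866571-30866799, also touched the overlapping gene Erlec1 and was the only one of the 30 member peaks that touched another coding gene. Psme3, the nuclear activator related to Psme1 and Psme2, had 1 peak in series 1, of 392 bp with a score of 32 over 5.35% of its 7.33 kb, and none in series 2. Psmf1, which binds the core as an inhibitor in the test tube, had 1 in series 1, of 802 bp with a score of 25 over 2.85%, and none in series 2. Psme2b, a short relative of Psme2, had none.

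Of the 7 assembly chaperones 1 had a peak, Psmg1, which helps build the alpha ring. That is 14.3%, against 27.4% of all coding genes. The chaperones' median span was 12.6 kb, and 19.2% of coding genes of 10 to 20 kb had a peak. On 7 genes the count is close to the background. The Psmg1 peak measured 221 bp with a score of 22 in series 2, over 2.00% of the span, and series 1 had none. Psmg2, Psmg3 and Psmg4 and the 19S chaperones Psmd5, Psmd9 and Psmd10 had none. Psmc3ip, which despite its name acts in meiotic recombination, and Psme3ip1 had none either. None of the 6 annotated pseudogenes with such symbols had a peak. The share over all annotated pseudogenes is not given here.

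The 30 member peaks had median scores close to those of the whole lists. Series 1 gave 15 peaks with scores of 15 to 45 (median 19, against 21 over its whole list) and series 2 gave 15 with scores of 12 to 30 (median 17, against 16). None reached 50. Restricting the lists to scores of at least 20 left 7 members in series 1, 4 in series 2 and none in both, where 10.9%, 9.01% and 3.30% of coding genes remained. Median width in series 1 was 802 bp for the members, above the list's 483 bp. There 14 of 15 peaks were at least 300 bp wide, against 81.9% of the list. In series 2 the median was 227 bp against 222 bp, and 5 of 15 were at least 300 bp, against 20.9%.

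**Figure D4:**
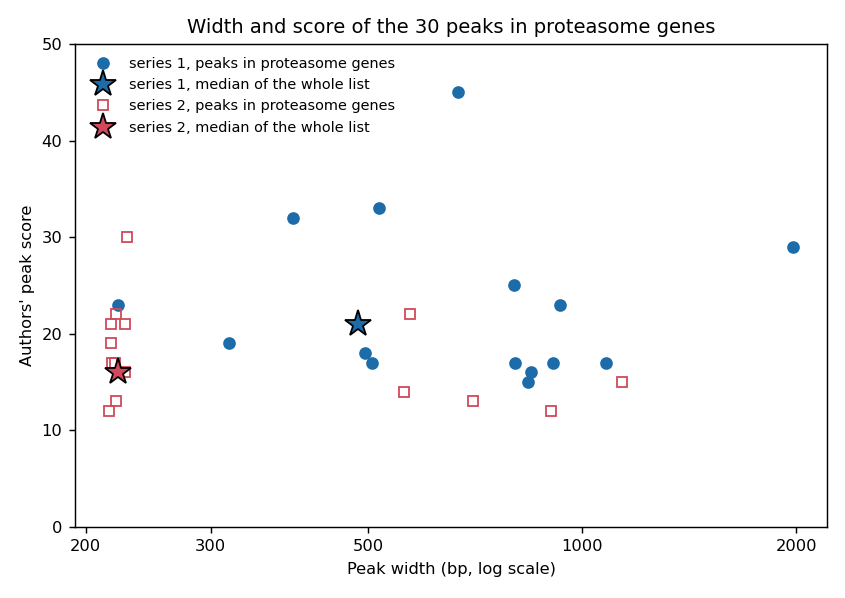
Width (bp, log scale) and authors' score of the 30 peaks in proteasome genes, with circles for series 1 and squares for series 2; stars mark the median of each whole list. Series 1 peaks are mostly wide and series 2 peaks mostly near 220 bp. None has a score of 50 or more, as is true of most peaks in each whole list.

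Peaks lay inside the genes and mostly past their middle. For 24 peaks in 15 members the strand was known from the RefSeq entries. The median peak centre lay 70.3% of the way from start to end, 16 of 24 centres lay past the middle, and 2 lay in the first 25% of the span. None was within 1 kb of the annotated start, and the nearest, in Psmc6, was 4.54 kb from it. By series, the medians were 58.7% over 13 peaks in series 1 and 74.8% over 11 in series 2. Over all coding genes with a known strand they were 60.8% over 4113 peaks and 58.7% over 5179. Of these peaks, 62.0% in series 1 and 59.4% in series 2 lay past the middle. In the first 25% of the span lay 15.7% and 16.6%. The lean towards the 3′ end was thus seen in all genes as well as in the members.

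The members of 5 to 10 kb with a peak had it close to the end. Psme3, Psmc4 and Psmd6, the 3 hit members of 5 to 10 kb, each had 1 peak whose centre lay 95.5%, 95.2% and 93.9% along the span, 0.332, 0.403 and 0.535 kb from the annotated end. Among 214 peaks in coding genes of that length, 12.6% had their centre in the last 10% of the span. Psmg1, with 11.0 kb the shortest hit member of the next band, had its peak at 93.7%, 0.692 kb from the end. These 4 were picked out after their values were seen. Of them, Psme3 alone has another coding gene, Aoc2, within 1 kb. Psmd2, the next shortest hit member with 12.3 kb, did not share this, with its peak at 58.7%, 5.08 kb from the end. The 5 peaks in members of 10 to 20 kb had a median position of 58.7%. Positions also varied in longer members, as in Psmd11, whose series 1 peak lay at 15.5% and series 2 peak at 80.5%, and in Psme4, whose 5 peaks lay between 41.7% and 86.8%.

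**Figure D5:**
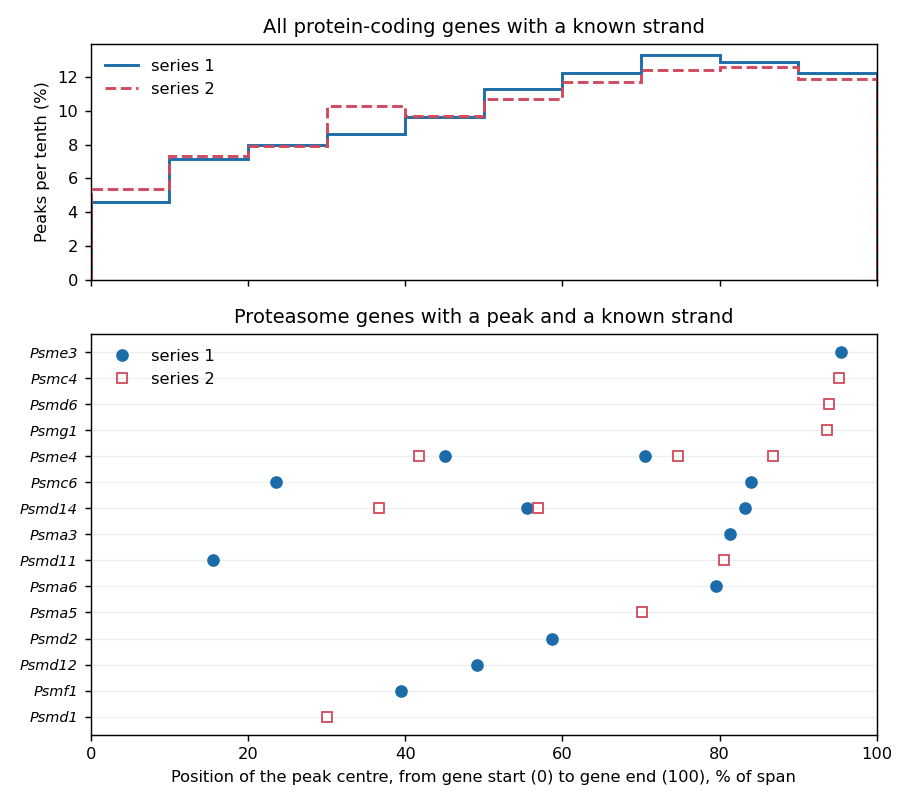
Position of peak centres from gene start (0) to gene end (100), in % of the span: above, the share of peaks per 10% of the span over all protein-coding genes with a known strand; below, each peak in a proteasome gene, with circles for series 1 and squares for series 2. Shares are lowest in the first 10% in both series, and Psme3, Psmc4, Psmd6 and Psmg1 have their peak between 93.7% and 95.5%.

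None of the 4 members hit in both series had a base under peaks of both. Over all coding genes hit in both, 324 of 1843 (17.6%) did, so none among 4 is close to the background. Of the members hit in 1 series alone, 7 were hit in series 1 and 7 in series 2. The libraries thus had 4 member genes in common and no base within them, and with 1 library per series the difference between the lists has no replicate test.

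Other genes of proteasome assembly, regulation and substrate delivery, which the symbol rule left out, were hit in 14 of 26 cases in either series. That is 53.8%, against 27.4% of coding genes. By series, 12 were hit in series 1, 9 in series 2 and 7 in both. The list includes the 19S subunits Adrm1 and Sem1, which had no peak. This list has a median span of 20.5 kb, longer than the members' 11.6 kb. Nfe2l1, the transcription factor that raises proteasome genes when the protease is impaired, had 2 peaks in series 1, over 3.64% of its span, and 1 in series 2, over 8.28%. The mean was 5.96% ± 3.28 (SD, n = 2), with 125 bp in common. Tap1 and Nfe2l1 were the only genes of the list with bases under peaks of both series. Pomp, the chaperone that matures the core, had 1 peak of 236 bp in series 2 with a score of 67, where member peaks of series 2 reached 30, and none in series 1. Nlrc5, the transactivator of MHC class I and immune subunit genes, had 1 and 6 peaks over 0.595% and 2.38% of its span. Usp14, a deubiquitinase of the 19S particle, had 2 and 1 peaks, Ubqln1, a shuttle for ubiquitinated substrates, 2 and 1, Ecpas, a proteasome adaptor, 2 and 1, and the ubiquitin ligase Ube3c 2 and 2. In series 1 the top scores of Ube3c and Ecpas were 78 and 62, where member peaks reached 45.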

How the data were processed

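H3K36me3 ChIP libraries of sorted mTEClo were analysed as the 2 peak lists that the authors deposited. The deposited lists give position, name and a whole-number score per peak, whose meaning is not stated. The submitters' processing notes name Bowtie2, SAMtools, MACS2 and mm10, with versions and parameters not given in the sources used here. The file's peak names show 2 inputs behind the series 1 calls and 1 behind series 2, each ChIP library called singly. Scores were used to describe and filter peaks within a list. Read-level input data were not used here.

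Gene spans came from RefSeq on GRCm38.p6 and strand from its promoter entries; exons and introns were not analysed here. A gene counted as hit with at least 1 bp of a peak. The covered share is the span under peaks. Overlapping genes each count a peak. No test was run, since all libraries share 1 condition and genes are not replicates; SDs are over the 2 series. Members and lists were chosen with earlier results of these data known. Every hit member and every beta, activator and inhibitor gene is named. Of the list of other proteasome-related genes, those hit in both series and Pomp, Nfe2l1, Tap1, Tap2, Adrm1 and Sem1 are named. Alternatives changed score, width, overlap, span ends and members. Overlap counts were tested on simulated data, where 200 of 200 planted peaks were recovered. Python 3.11.15, numpy 2.4.6, pandas 2.3.3 and matplotlib 3.10.9 were used.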

Additional observations from a re-analysis of the deposited data

How the results depend on the processing

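Counts of proteasome genes depended on the peaks admitted. With scores of at least 20, series 1 gave 7, series 2 gave 4, both 0 and either 11, constitutive beta subunits fell from 3 to 1 and non-ATPase 19S subunits from 6 to 2. With scores of at least 50, or with at least 10% of the span under peaks, all 4 counts were 0; over all coding genes the score limit left 1.48% in series 1, 0.763% in series 2, 0.0868% in both and 2.16% in either, and the span limit 0.525%, 0.233%, 0.0183% and 0.740%, so 0 of 51 is close to the background. With peaks of at least 300 bp, series 2 gave 4 (7.84%, against 6.90% of coding genes) and either 11 (21.6%, against 17.7%). Extending spans by 5 kb gave 7 in both series (13.7%, against 9.43%). Among the 27 members without a coding gene within 1 kb, 7 were hit in series 1, 8 in series 2, 2 in both and 13 in either. Of the 24 members with such a neighbour, 5 were hit in either. The share among coding genes without such a neighbour was not computed. Without replicate 1 or 2 only 1 library is left, so no count for both series can be formed. Each library alone hits 11, which does not show how stable the 4 in both are. A minimum of 100 bp, spans extended by 1 kb, and the 48 members whose symbol ends in the number moved no count by over 1.5 times. The immune and thymic count stayed at 0 under the 2 alternatives run for it, scores of at least 20 and spans extended by 1 kb. Length-weighted scores moved 4 of the 22 named scores. No paired analysis was possible because no test was run and only 1 group has peak lists.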
